A study of Mus musculus with 9 samples.

Results

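The genes described here are 41 genes of the endoplasmic reticulum (ER), the compartment in which a cell folds the proteins it secretes or places in its membranes. The genes were listed by name, and their probe sets were taken where the platform annotation gives a listed gene as the only gene symbol of the probe set. Of the 34958 probe sets with 1 symbol, 96 met the rule. Of these, 86 were bright enough to be tested, at least 1 for each of the 41 genes. The tested table as a whole held 11984 genes. The 41 genes comprise 11 folding helpers, 9 disulfide and prolyl isomerases, 10 genes of translocation and signal peptide removal, 7 of degradation and 4 regulators.

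Secreted proteins enter the ER through a membrane channel as they are made, lose their signal peptide, and are folded with the help of chaperones and of enzymes that form disulfide bonds. Chains that fail to fold are passed back to the cytosol and destroyed. Membrane sensors watch the load of unfolded protein and, through the unfolded protein response, raise transcription of chaperones and of the degradation machinery. In the lung the pathway is heavily used by cells that secrete for a living, among them plasma cells, mucous cells and alveolar type 2 cells.

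The study gave female C57BL/6 mice, aged 14 weeks, a replication-deficient adenovirus into the trachea and took the lungs 14 days later. There were 3 mice for each of 3 viruses, and each mouse has 1 Affymetrix array. All mice received a virus: the control virus AdV-NULL encodes no cytokine, AdV-IL4 encodes mouse IL-4, the cytokine of type 2 immunity, and AdV-IL4d2 encodes IL-4d2, a mouse splice variant of that cytokine. The questions are which lung transcripts each cytokine form altered and whether the forms acted differently. The promoter that drives the cytokine and the cells that take up the virus are not given in the sources used here. The signal of Il4 averaged 43.5 ± 27.9 (SD) over the 3 arrays of the control virus, 338 ± 39.1 over those of IL-4 and 872 ± 343 over those of IL-4d2. The arrays of the forms did not overlap (301 to 379 with IL-4, 499 to 1172 with IL-4d2). The difference between them did not pass the test (limma adjusted p = 0.104). Both comparisons with the control virus use the same 3 control arrays and are not independent of each other.

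Values are MAS5 signals, which the authors' processing scaled to 1 typical level per array. A log2 difference below is a difference of log2(signal + 16) between group means, ± its standard error from the limma fit, and a gene rose or fell where its adjusted p was under 0.05. Because of the scaling, each direction is relative to the typical probe set of an array. Against bacterial control transcripts added at hybridisation, the median of all tested probe sets itself shifted by −0.43 (log2) with IL-4 and by 0.08 with IL-4d2, and against the poly-A controls by −0.77 and 0.27. The median of the 41 genes lay above that of all probe sets by 0.25 with IL-4 as deposited, by 0.24 on the hybridisation scale and by 0.23 on the poly-A scale. With IL-4d2 these distances were 0.19, 0.19 and 0.20. On the control scales themselves 2 of the 41 genes rose and 4 fell with IL-4 (hybridisation), or 0 rose and 22 fell (poly-A). Over all 23824 tested probe sets 295 rose and 7156 fell with IL-4 (hybridisation), or 152 rose and 17971 fell (poly-A).

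With IL-4, 14 of the 41 genes rose and 1 fell, with a median log2 difference of 0.25. The members that rose make 34.1% of the list, beside 6.34% of all 11984 tested genes, and those that fell 2.44%, beside 6.63%. The 41 genes were chosen with earlier results of these data known. The shares here and below are therefore descriptions and not tests of the list. With IL-4d2, 5 of 41 rose and none fell by limma at the adjusted threshold, which is 12.2% beside 0.859% of all genes for increases and beside 0.401% of all genes for decreases; the median was 0.19. At an unadjusted p under 0.05, 25 were higher and 1 lower with IL-4, and 18 were higher and 0 lower with IL-4d2. The unadjusted counts, here and below, come without the share of all tested genes at that cut. They cannot be set against a background. The median over all tested genes was −0.02 with IL-4 and −0.00 with IL-4d2. Between the cytokine forms, 2 of 41 were higher with IL-4 than with IL-4d2, or 4.88% beside 1.18% of all genes, and 0 were lower by limma, beside 1.05% of all genes, with 11 higher and 3 lower at an unadjusted p under 0.05. When the arrays with outlying muscle transcripts (mouse 1 of the control virus, mouse 2 of IL-4) were omitted, 11 rose with IL-4, 4 rose with IL-4d2, and 0 passed between the forms. In that fit of 7 arrays the calls lost had log2 differences of 0.36 (Canx), 0.38 (Dnajb9), 0.66 (Derl3) and −0.38 (Atf6) with IL-4, 0.41 (Pdia4) with IL-4d2, and 0.42 (Edem1) and 0.46 (Syvn1) between the forms. By role, 9 of 11 folding helpers rose with IL-4. Of the 10 translocation genes 0 passed, and 7 had differences above 0 (median 0.11). A list of 10 genes is too short to tell 0 from the 6.34% of all genes, so a lack of response is not shown.

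**Figure D1:**
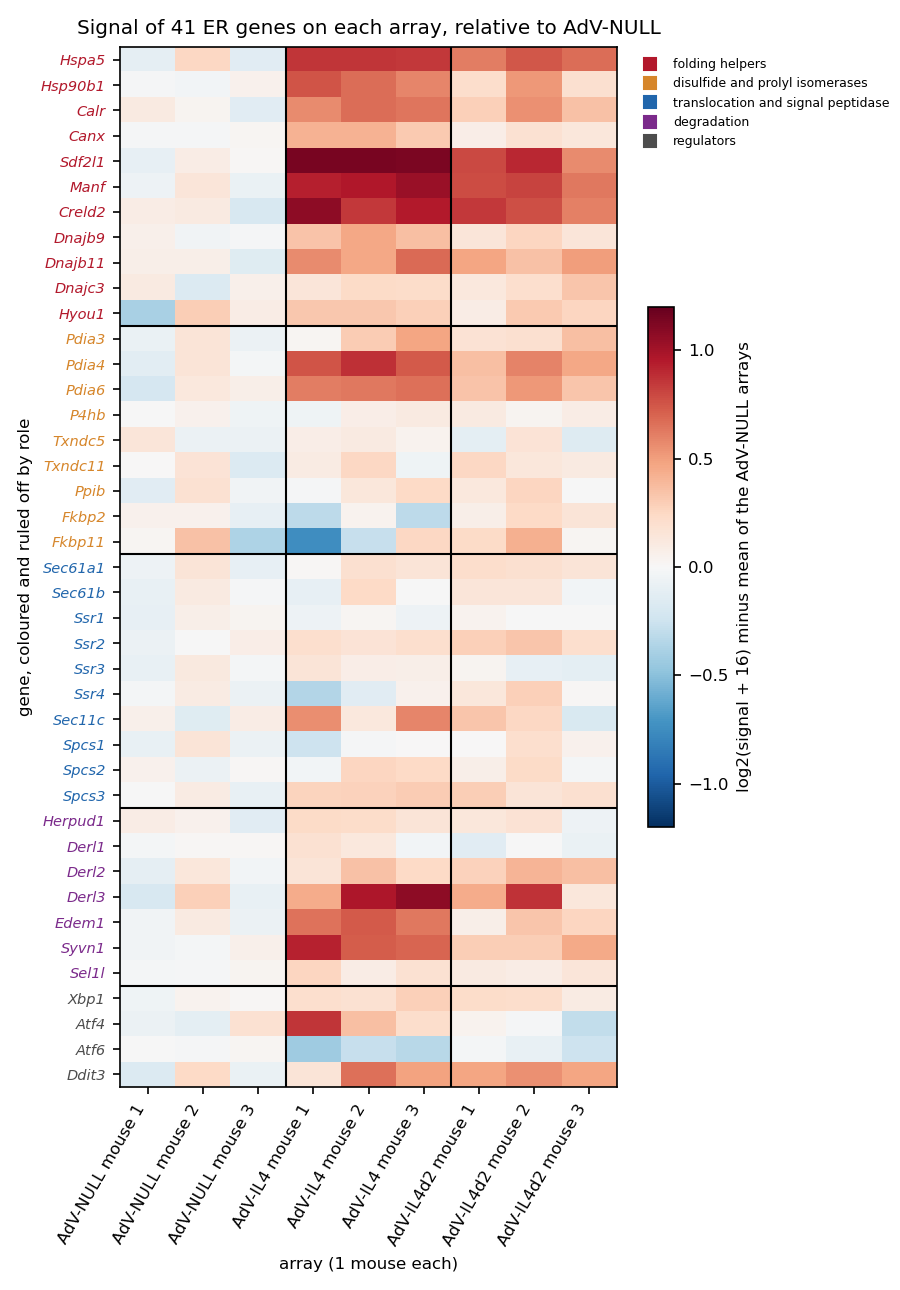
Signals of the 41 ER genes (rows, ruled off by role) on the 9 arrays (columns, 1 mouse each), as log2(signal + 16) minus the mean of the 3 AdV-NULL arrays of that gene. The folding helpers from Hspa5 to Dnajb11, together with Pdia4, Pdia6, Edem1 and Syvn1, are red on the 3 AdV-IL4 arrays and paler on the AdV-IL4d2 arrays, while the translocation block, apart from Sec11c, stays near white (deposited scale, which hides a shift shared by most genes).

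Many chaperone promoters carry the ER stress element, a CCAAT box and the letters CCACG separated by 9 bases, which is bound by NF-Y together with ATF6 and related factors. It was searched on both strands in RefSeq promoter windows (build GRCm38.p6) that run from 250 bases before to 50 bases after each start. The element was in 39 of 32851 windows, or 0.119%, while its parts alone are common (CCAAT in 37.4% and CCACG in 32.8%). Of the 41 genes, 33 had a window, and 9 of these 33 held the element, 10 copies in all. They are shown because 8 of the 9 genes that hold the element rose with IL-4. The capitals mark CCAAT and CCACG, each sequence reads 5′ to 3′ on the strand of the element, and 10 bases of flank stand on either side.
Hspa5: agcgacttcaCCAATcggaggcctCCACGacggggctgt
Hsp90b1 near copy: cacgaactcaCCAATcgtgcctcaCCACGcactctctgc
Hsp90b1 far copy: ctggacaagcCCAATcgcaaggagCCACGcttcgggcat
Calr: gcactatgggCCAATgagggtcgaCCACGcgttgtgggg
Canx: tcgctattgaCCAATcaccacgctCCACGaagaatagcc
Creld2: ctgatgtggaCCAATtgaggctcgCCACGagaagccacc
Dnajc3: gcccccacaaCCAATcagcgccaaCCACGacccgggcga
Pdia6: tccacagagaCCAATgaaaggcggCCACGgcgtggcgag
Derl3: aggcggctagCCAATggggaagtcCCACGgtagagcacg
Syvn1: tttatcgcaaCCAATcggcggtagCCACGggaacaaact

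These windows lie upstream of the start, outside the transcript. On GRCm38.p6 they are at chr2:34772015-34772053 (plus strand) for Hspa5, chr10:86705523-86705561 (plus) and chr10:86705628-86705666 (minus) for Hsp90b1, chr8:84847065-84847103 (plus) for Calr and chr11:50325790-50325828 (minus) for Canx. Those of Creld2 and Dnajc3 are at chr15:88819510-88819548 (minus) and chr14:118937817-118937855 (plus). Those of Pdia6, Derl3 and Syvn1 are at chr12:17266481-17266519 (plus), chr10:75893232-75893270 (minus) and chr19:6046522-6046560 (plus). The 10 elements sit between 26 and 212 bases before the start, 6 on the strand of the gene and 4 on the other, and 6 or 7 of their 9 spacer bases are G or C. By role, the element was in 6 of 9 folding helpers with a window, 1 of 9 isomerases, 2 of 6 degradation genes, 0 of 6 translocation genes and 0 of 3 regulators.

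Of the 9 genes with the element, 8 rose with IL-4, with a median log2 difference of 0.67, and 2 rose with IL-4d2, with a median of 0.40. Of the 24 genes whose window lacks it, 5 rose with IL-4 and 2 with IL-4d2, with medians of 0.17 and 0.15. The element goes with role, since 6 of the 9 folding helpers with a window hold it. All of these but Dnajc3 rose with IL-4, and so did the folding helpers whose window lacks it, Sdf2l1, Dnajb9 and Dnajb11. The parts of element and role cannot be told apart here. Sdf2l1, Dnajb9, Dnajb11, Pdia4 and Edem1 are the 5 that rose with IL-4 without the element in their window. Their windows hold CCAAT and CCACG, but not at the 9-base spacing of the element. In Dnajb11 the parts stand close together on opposite strands, at bases 8 to 12 and 14 to 18 after the start. Elements with other spacings were not searched, so the grouping holds for the 9-base spacing only. Manf, which also rose, has no window in the table. Outside the list the element was in the windows of 28 other genes. Of these, 6 were tested, 0 rose with IL-4 by limma, and Acacb fell by 1.26 (log2; limma adjusted p = 0.017). Ero1b, which oxidises the disulfide isomerases, had a difference of 0.44 (adjusted p = 0.131). The grouping by element was made after the data were seen, and a match of letters does not show that a factor binds there.

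Among the folding helpers, 9 of 11 rose with IL-4 (median 0.63) and 4 of 11 with IL-4d2 (median 0.40). Hspa5 encodes BiP, the Hsp70-type chaperone of the ER lumen that also holds the stress sensors in check. Its signals were 8365, 10703 and 8179 with the control virus, 16344, 16366 and 16224 with IL-4 and 13769, 15094 and 14361 with IL-4d2. All 6 cytokine arrays lay above all 3 control arrays, and the IL-4 arrays were nearly identical to each other. It rose 1.81-fold with IL-4 (0.85 ± 0.10 in log2, limma adjusted p = 0.000384) and 1.6-fold in the IL-4d2 group (0.67 ± 0.10, adjusted p = 0.00522).

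Hsp90b1 encodes GRP94, the Hsp90 of the ER lumen. Control mice had signals of 14038, 13929 and 14689, IL-4 mice 23950.3, 22673 and 21368, and IL-4d2 mice 16414, 20453 and 16199. The groups did not overlap, with the IL-4d2 mice between the others. The gene rose with IL-4 (0.67 ± 0.10, limma adjusted p = 0.00157), whereas its difference with IL-4d2 was 0.31 ± 0.10 (adjusted p = 0.168) at the brighter of its probe sets. The other probe set passed the test in both comparisons, at 0.69 with IL-4 and 0.53 with IL-4d2 (limma adjusted p = 0.0222).

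Calr and Canx encode calreticulin and calnexin, the lectins that hold glycoproteins while they fold. Calr had signals of 5553, 5290.1 and 4686 with the control virus, 7664, 8233 and 8053 with IL-4 and 6314, 7562 and 6598 with IL-4d2. Those of Canx were 9531, 9545 and 9750.2 with the control virus, 12840.3, 12819 and 11916 with IL-4, and 10124, 10928 and 10593 with IL-4d2. In both genes the groups stood in the order control, IL-4d2, IL-4 without overlap. With IL-4, Calr rose by 0.63 ± 0.09 (limma adjusted p = 0.00173) and Canx by 0.38 ± 0.07 (adjusted p = 0.00745). With IL-4d2 the differences were 0.40 ± 0.09 for Calr (adjusted p = 0.0627) and 0.13 ± 0.07 for Canx (adjusted p = 0.444). The dimmer probe sets of Canx gave 0.27 and −0.08 with IL-4, and neither passed the test.

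The largest changes of the list were those of 3 small ER-resident proteins. Sdf2l1 encodes a partner of the J-domain chaperones, and its signals were 404, 462 and 438 with the control virus, 974, 975 and 968 with IL-4 and 762, 824 and 652 with IL-4d2. It rose 2.2-fold with IL-4 (1.14 ± 0.11 in log2, limma adjusted p = 0.000103) and 1.69-fold in the IL-4d2 group (0.75 ± 0.11, adjusted p = 0.00438). Every IL-4 array lay above every IL-4d2 array, and these above every control array. Manf encodes a BiP-binding protein that is itself secreted under ER stress, with signals of 2754, 3181 and 2723 with the control virus, 5505, 5622 and 5936 with IL-4 and 4969.6, 5061 and 4485 with IL-4d2. Its increases were 1.97-fold (0.98 ± 0.09, limma adjusted p = 6.38e-05) and 1.67-fold (0.74 ± 0.09, adjusted p = 0.000818). Creld2 encodes another ER protein that is released under stress. Its signals ran 1021, 1035 and 841 with the control virus, 2045, 1746 and 1877 with IL-4 and 1743, 1653 and 1469 with IL-4d2. It rose 1.95-fold (0.96 ± 0.11, limma adjusted p = 0.0003) and 1.67-fold (0.74 ± 0.11, adjusted p = 0.00477), again with no overlap between groups.

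**Figure D2:**
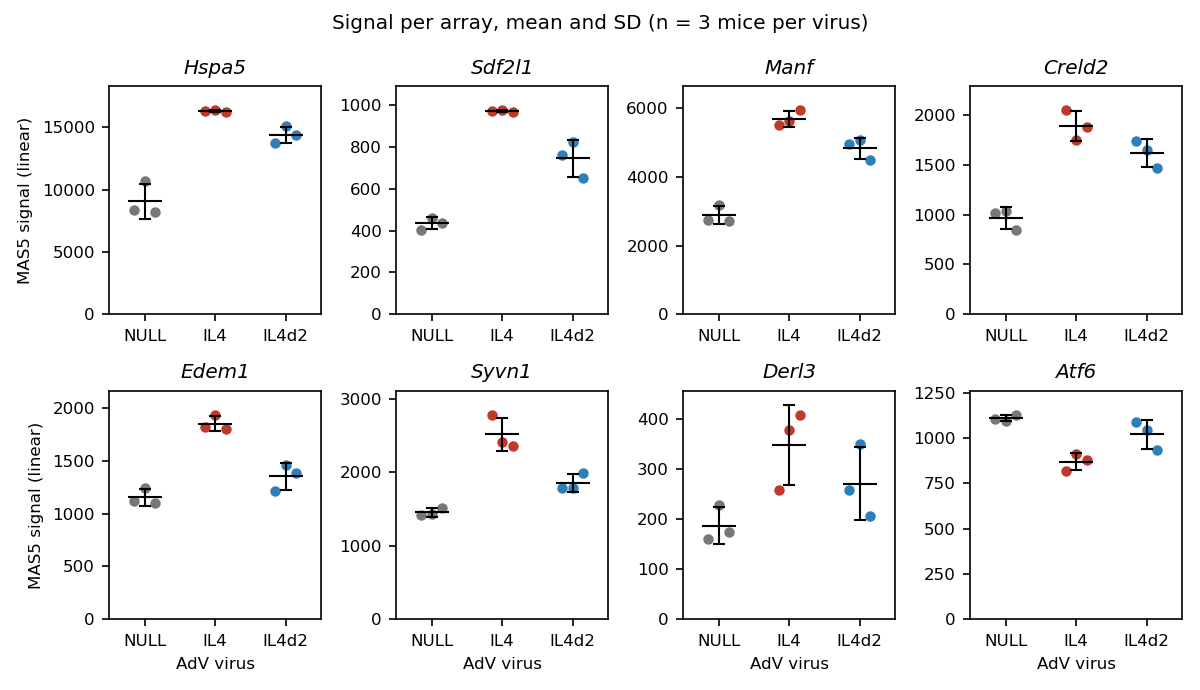
MAS5 signal (linear, each axis from 0) of 8 of the genes on each array, by virus, with the mean and SD of 3 mice. Hspa5, Sdf2l1, Manf and Creld2 are higher on all 6 cytokine arrays than on the control arrays, Edem1 and Syvn1 separate the AdV-IL4 from the AdV-IL4d2 arrays, Derl3 spreads widely, and Atf6 is lowest with AdV-IL4; on the control-transcript scales Edem1 and Syvn1 turn lower in AdV-IL4 than in AdV-IL4d2.

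The J-domain proteins deliver clients to BiP. Dnajb9 had signals of 3947, 3678 and 3744 with the control virus, 4797, 5235 and 4871 with IL-4 and 4187, 4522 and 4181 with IL-4d2, and rose with IL-4 by 0.39 ± 0.08 (limma adjusted p = 0.00848). For Dnajb11 they were 1029, 1030.4 and 882, then 1455, 1358 and 1579.6, then 1362, 1254 and 1389.9 in the same order of groups. Dnajb11 rose with IL-4 by 0.57 ± 0.10 (limma adjusted p = 0.00408), and its difference of 0.44 ± 0.10 with IL-4d2 narrowly missed the threshold (adjusted p = 0.0538). Its IL-4 and IL-4d2 arrays overlapped, and both groups lay above the controls. In the fit without the arrays of outlying muscle transcripts, Canx (0.36, limma adjusted p = 0.0708) and Dnajb9 (0.38, adjusted p = 0.0547) lost their calls.

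Dnajc3 and Hyou1 are the remaining folding helpers. Dnajc3, which encodes the co-chaperone p58IPK, had differences of 0.20 with IL-4 (limma adjusted p = 0.192) and 0.22 with IL-4d2 at its brightest probe set. Of its 4 other tested probe sets, 1 passed the test with IL-4, at 0.43 (limma adjusted p = 0.00852), so its probe sets disagree. Hyou1, which resets BiP by exchanging its nucleotide, had a difference of 0.31 ± 0.14 with IL-4 (adjusted p = 0.198), and its control signals of 1044, 1684 and 1462 overlapped both cytokine groups.

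**Figure D3:**
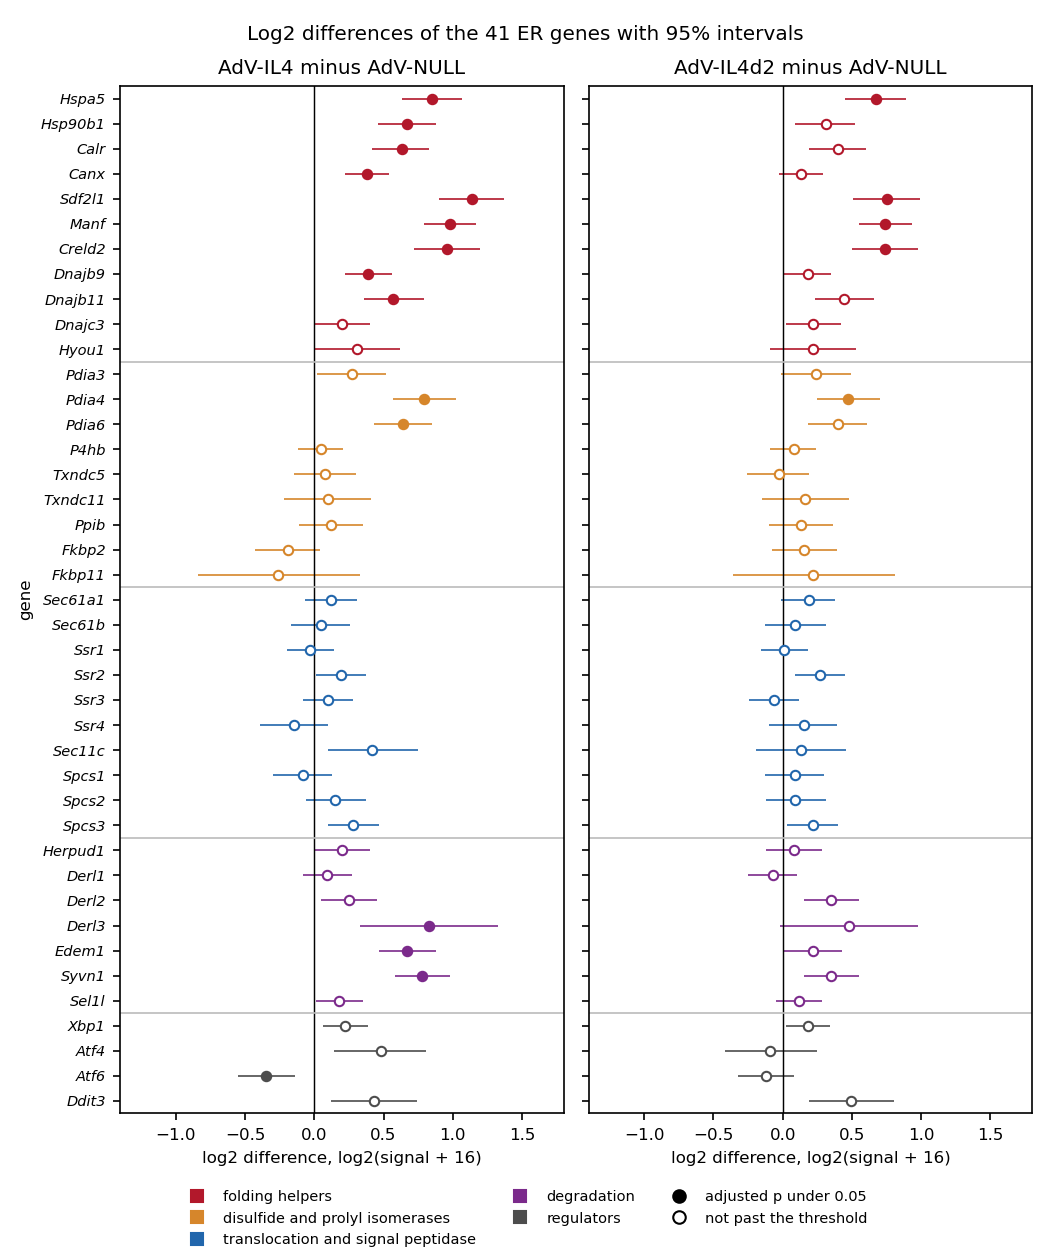
Log2 differences of log2(signal + 16) for the 41 genes, AdV-IL4 minus AdV-NULL (left) and AdV-IL4d2 minus AdV-NULL (right), with 95% intervals of the limma fit on 3 mice per group and colours by role. Filled points passed an adjusted p of 0.05, 15 on the left and 5 on the right, and no translocation gene is filled in either panel; the points are on the deposited scale, and on the control-transcript scales most AdV-IL4 points shift to the left of 0.

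Of the 9 isomerases, 2 rose with IL-4 (median 0.10) and 1 with IL-4d2 (median 0.16). Both are members of the protein disulfide isomerase family, which forms and reshuffles disulfide bonds. Pdia4 had signals of 820.3, 1000.3 and 884 with the control virus, 1531, 1668 and 1511 with IL-4 and 1157, 1366 and 1243 with IL-4d2. The 3 groups did not overlap. It rose 1.73-fold with IL-4 (0.79 ± 0.10 in log2, limma adjusted p = 0.000766) and 1.39-fold in the IL-4d2 group (0.47 ± 0.10, adjusted p = 0.0476). The call with IL-4d2 sits at the threshold: it was lost in 7 of 9 fits that left out 1 mouse, in all but those without control mouse 2 or IL-4 mouse 1, with differences of 0.41 to 0.55 over the 9 fits.

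Pdia6 had signals of 2526, 3173 and 3040.1 with the control virus, 4445, 4506 and 4606 with IL-4 and 3677, 4155 and 3645 with IL-4d2. Its groups did not overlap either. It rose with IL-4 by 0.64 ± 0.10 (limma adjusted p = 0.00197), and its difference with IL-4d2 was 0.40 ± 0.10 (adjusted p = 0.0725). The founding member of the family, P4hb, which is also a subunit of the collagen prolyl hydroxylase, differed by 0.05 with IL-4 (95% interval −0.12 to 0.21) and by 0.08 with IL-4d2 (−0.09 to 0.24). Pdia3, the isomerase that works with calreticulin and calnexin, had 0.27 (0.02 to 0.52; limma adjusted p = 0.166) and 0.24 (−0.01 to 0.49).

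The thioredoxin-like Txndc5 and Txndc11 had differences of 0.08 and 0.10 with IL-4, and of −0.03 and 0.16 with IL-4d2. Among the prolyl isomerases, Ppib (cyclophilin B) had 0.12 with IL-4 and Fkbp2 −0.19, both with overlapping groups. Fkbp11, a gene of secretory cells, had a difference of −0.26 with IL-4 (95% interval −0.84 to 0.33) and 0.22 with IL-4d2 (−0.36 to 0.81). Its interval is the widest of the list, and its signals of 109.8 to 268 lie near the array medians of 156 to 171.

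None of the 10 translocation and signal peptidase genes passed the limma test in any comparison. With IL-4, Spcs3 passed under quantile normalization (0.30, limma adjusted p = 0.0438) and without control mouse 2 (0.33, adjusted p = 0.0484), and Sec11c passed without IL-4 mouse 2 (0.57, adjusted p = 0.0318). At an unadjusted p under 0.05, 3 were higher with IL-4, 2 were higher with IL-4d2, and 1 was lower with IL-4 than with IL-4d2. Their median difference was 0.11 with each cytokine form. The Sec61 channel subunits Sec61a1 and Sec61b had 0.12 (95% interval −0.07 to 0.31) and 0.05 (−0.17 to 0.26) with IL-4. Those of the translocon-associated complex, which helps chains enter the channel, were −0.03 for Ssr1, 0.19 for Ssr2, 0.10 for Ssr3 and −0.15 for Ssr4.

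In the signal peptidase, which cuts off the signal peptide, the catalytic subunit Sec11c had the largest difference of the role with IL-4. Its signals were 4464, 3856 and 4531 with the control virus, 6289.9, 4679 and 6429 with IL-4 and 5372, 5090.5 and 3762 with IL-4d2, so IL-4 mice 1 and 3 stood well above mouse 2. The difference was 0.42 ± 0.15 (limma adjusted p = 0.0903). Spcs3 had 0.28 ± 0.08 (adjusted p = 0.0529) with groups that did not overlap, while Spcs2 had 0.15 and Spcs1 −0.08. Dimmer probe sets passed the test with IL-4 in a pair of these genes, 1 of the 6 of Sec61a1 (0.46, limma adjusted p = 0.0372) and 1 of the 4 of Ssr1 (0.40, adjusted p = 0.0344), and the brightest probe sets of both did not. Others of the same genes had differences below 0, −0.42 for Sec61a1 (adjusted p = 0.36) and −0.47 for Ssr1 (adjusted p = 0.0559), and the mean over all tested probe sets of Sec61a1 was 0.00.

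Of the 7 degradation genes, 3 rose with IL-4 (median 0.25). With IL-4d2 0 of 7 passed the limma test (median 0.22), and 3 were higher at an unadjusted p under 0.05. Syvn1 encodes HRD1, the ubiquitin ligase that marks misfolded chains in the ER membrane. Its signals were 1412, 1427 and 1519 with the control virus, 2777, 2409.9 and 2362 with IL-4 and 1786, 1780.3 and 1997 with IL-4d2. The 3 groups were fully apart. It rose 1.72-fold with IL-4 (0.78 ± 0.09 in log2, limma adjusted p = 0.000372), and the difference with IL-4d2 was 0.35 ± 0.09 (adjusted p = 0.0951).

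Edem1 encodes the lectin that picks out glycoproteins for degradation. The 3 control mice had 1121, 1246 and 1097, the IL-4 mice 1818, 1932 and 1802, and the IL-4d2 mice 1215, 1459 and 1383. All IL-4 arrays lay above the rest, while IL-4d2 and control arrays overlapped. The gene rose 1.6-fold with IL-4 (0.67 ± 0.10, limma adjusted p = 0.00132), and its difference with IL-4d2 was 0.22 ± 0.10 (adjusted p = 0.312). The dimmer of its probe sets gave 0.98 with IL-4 and 0.77 with IL-4d2, and passed in both comparisons (limma adjusted p = 0.00225 and 0.0299).

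Derl3 encodes the derlin of secretory cells, a membrane protein of the export route, and is dim in these lungs. Signals of 159, 228 and 173 with the control virus stood beside 258, 378 and 407 with IL-4 and 257, 349 and 205 with IL-4d2, and only the IL-4d2 arrays overlapped the others. It rose 1.78-fold with IL-4 (0.83 ± 0.23 in log2, limma adjusted p = 0.0379). The call was lost in 5 of 9 fits that left out 1 mouse, with 0.73 without control mouse 1, 0.79 without control mouse 3, 0.76 without IL-4 mouse 2, 0.71 without IL-4 mouse 3 and 0.83 without IL-4d2 mouse 1. The other derlins had smaller differences that did not pass, 0.09 for Derl1 and 0.25 for Derl2 with IL-4, and −0.07 and 0.35 with IL-4d2. Sel1l, the partner of HRD1, had 0.18 with IL-4 (95% interval 0.01 to 0.35; limma adjusted p = 0.17), and Herpud1, a scaffold of the same complex, 0.20 (0.00 to 0.40; adjusted p = 0.19).

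Of the 4 regulators, 1 fell with IL-4 and 0 passed the limma test with IL-4d2, with 2 higher at an unadjusted p under 0.05. Atf6 encodes a sensor that is cut into a transcription factor for chaperone genes. Its signals were 1108, 1096 and 1126 with the control virus, 820.4, 911 and 879 with IL-4 and 1091, 1042 and 934 with IL-4d2. The IL-4 mice were below all others. The difference of −0.35 ± 0.09 with IL-4 passed the test (limma adjusted p = 0.0353), but it was lost in 7 of 9 fits without 1 mouse, in all but those without IL-4d2 mouse 1 or 3, at −0.38 to −0.31. A dimmer probe set of Atf6 gave 0.09, so the decrease rests on 1 probe set.

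Xbp1 encodes the transcription factor whose mRNA the sensor Ern1 splices into its active form. Its signals of 9213, 9827 and 9685 with the control virus, 10989, 10848 and 11666 with IL-4 and 11179, 11096 and 10279.5 with IL-4d2 did not overlap between control and cytokine groups. The differences were 0.22 ± 0.08 (limma adjusted p = 0.084) and 0.18 ± 0.08 (adjusted p = 0.299). Whether its probe sets can tell the spliced from the unspliced form was not examined.

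Atf4 encodes the factor translated when general translation is slowed, and Ddit3 encodes CHOP, its target linked to cell death. Atf4 had signals of 4719, 4551 and 5623 with the control virus, 8989.6, 6340.2 and 5739 with IL-4 and 5091, 4892 and 4036 with IL-4d2, so IL-4 mouse 1 stood far above the rest. Its difference with IL-4 was 0.48 ± 0.15 (limma adjusted p = 0.0689), and 0.05 at its other tested probe set. Ddit3 had 0.43 ± 0.14 with IL-4 (adjusted p = 0.0736) and 0.49 ± 0.14 with IL-4d2 (adjusted p = 0.122). With IL-4, Ddit3 passed with the replicate block (0.43, limma adjusted p = 0.0404), without IL-4 mouse 1 (0.57, adjusted p = 0.0249) and without control mouse 2 (0.55, adjusted p = 0.0366), and Atf4 passed without IL-4 mouse 3 (0.61, adjusted p = 0.0401). A dim probe set of Ddit3, with signals of 34.6, 106 and 21.2 with the control virus, had 148, 259.9 and 164 with IL-4; no fold is given, since the control signals are low and vary widely.

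The direct comparison of the cytokine forms tests whether the mice given them differ. The Il4 signal itself averaged 338 with IL-4 and 872 with IL-4d2, without overlap. The comparison thus does not separate the form from the level of its transcript, and the part of that level was not tested. Of the 41 genes, 2 passed, both of degradation and both higher with IL-4. Edem1 differed by 0.45 ± 0.10 (95% interval 0.24 to 0.66; limma adjusted p = 0.0377) and Syvn1 by 0.44 ± 0.09 (0.23 to 0.64; adjusted p = 0.0373). Both calls rest on small margins: each was lost in 6 of 9 fits, namely whenever an IL-4 or an IL-4d2 mouse was left out, at 0.38 to 0.51 for Edem1 and 0.36 to 0.49 for Syvn1. The second probe sets gave 0.21 for Edem1 and 0.25 for Syvn1, neither of which passed. Against the control transcripts the median of all tested probe sets was lower with IL-4 than with IL-4d2, by −0.52 (hybridisation) and −1.04 (poly-A), and on these scales the differences turned to −0.08 and −0.62 for Edem1 and to −0.10 and −0.63 for Syvn1, still above that median.

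For the folding helpers the forms could not be told apart at the brightest probe sets in the reported fit. There 0 of 11 passed the limma test, and 6 were higher with IL-4 at an unadjusted p under 0.05 (median 0.22). Hsp90b1 passed, higher with IL-4, under quantile normalization and in the fit without IL-4d2 mouse 2. The difference between forms was 0.18 for Hspa5 (95% interval −0.04 to 0.40; limma adjusted p = 0.408), 0.23 for Manf (0.04 to 0.43; adjusted p = 0.209) and 0.22 for Creld2 (−0.02 to 0.46; adjusted p = 0.344). It was 0.38 for Sdf2l1 (0.14 to 0.62; adjusted p = 0.109), 0.36 for Hsp90b1 (0.15 to 0.58; adjusted p = 0.0912) and 0.25 for Canx (0.09 to 0.41; adjusted p = 0.117). These intervals leave room for no difference in some genes and for a clear one in others. A second, dimmer probe set of Hspa5 passed, with 12024, 11103 and 10895 in IL-4 mice and 8799, 8783 and 7776 in IL-4d2 mice (0.42 ± 0.08, limma adjusted p = 0.0225). The remaining probe set of Hspa5, which can cross-hybridise by its type, gave 0.20 for IL-4 against control with overlapping groups. The probe sets that stand for Atf4, Ppib and Ssr3 are of the same type.

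In the other roles 0 isomerases passed between the forms, with 2 higher and 1 lower with IL-4 at an unadjusted p under 0.05. Pdia4 had 0.32 (95% interval 0.10 to 0.54; limma adjusted p = 0.147) and Pdia6 0.24 (0.03 to 0.45; adjusted p = 0.237), while Fkbp2 was lower with IL-4, at −0.35 (−0.59 to −0.11; adjusted p = 0.14). Among the regulators 0 passed, with 1 higher and 1 lower at an unadjusted p under 0.05. Atf4 had the largest difference of the list between forms at the brightest probe sets, 0.57 ± 0.15 (limma adjusted p = 0.0932), with IL-4 mouse 1 furthest out. Its other tested probe set gave 0.01 (95% interval −0.17 to 0.19, limma adjusted p = 0.974), so the difference rests on 1 probe set.

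Other genes of the pathway were counted from lists of 100 names, written apart from the 41 genes, of which 90 were tested. With IL-4, 4 rose and 2 fell, with a median of 0.04. These are 4.44% and 2.22%, beside 6.34% and 6.63% of all tested genes. The 90 genes as a set did not exceed the background, and the genes named next are descriptions. Erp29, a chaperone of secretory cargo, rose by 0.63 ± 0.10 (limma adjusted p = 0.00212), and Uggt1, which sends unfinished glycoproteins back to calnexin, by 0.57 ± 0.11 (adjusted p = 0.00589). The ubiquitin-conjugating enzyme Ube2g2 rose by 0.57 (adjusted p = 0.0381) and the cell death protein Bak1 by 0.81 (adjusted p = 0.0242). Asns, the asparagine synthetase that ATF4 activates, fell by 0.54 (limma adjusted p = 0.0258), and Sar1b, which starts the vesicles that leave the ER, fell by 0.42 (adjusted p = 0.0084).

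By list, 2 of 16 folding and redox genes, 1 of 12 degradation genes and 1 of 17 sensors and stress targets rose with IL-4, and 1 sensor or target fell. Of 19 genes of translocation and N-glycan transfer 0 passed by limma, with 1 higher and 3 lower at an unadjusted p under 0.05. Of 26 genes of ER to Golgi transport 0 rose and 1 fell. The sensors Ern1 and Eif2ak3 had differences of −0.13 and 0.09 with IL-4, and the ATF4 and CHOP targets Trib3 and Chac1 had −0.02 and −0.47, none of which passed. With IL-4d2, 0 of the 90 passed by limma, with 13 higher and 3 lower at an unadjusted p under 0.05 and a median of 0.05. Between the forms, Sar1b was lower with IL-4 by −0.37 (limma adjusted p = 0.046).

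**Figure D4:**
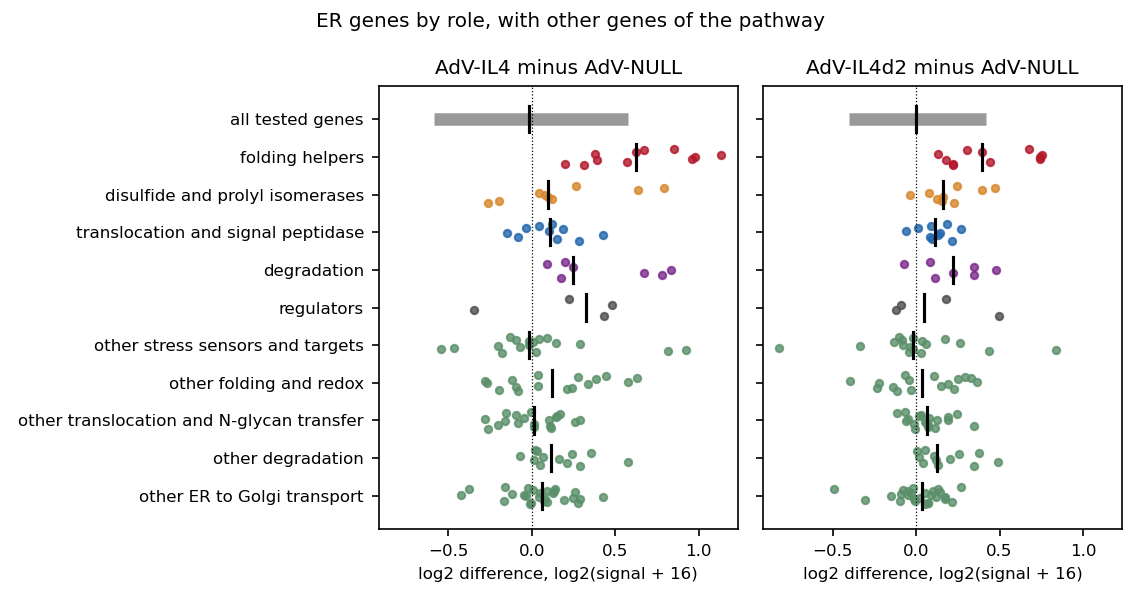
Log2 differences of log2(signal + 16) of the 41 genes by role and of 90 other genes of the pathway by list, AdV-IL4 minus AdV-NULL (left) and AdV-IL4d2 minus AdV-NULL (right), with each point a gene and each black line a median. The grey bar spans the 5th to the 95th percentile of all 11984 tested genes (−0.58 to 0.58 on the left, −0.40 to 0.42 on the right); the folding helpers have medians of 0.63 and 0.40, the degradation genes 0.25 and 0.22 and the regulators 0.33 and 0.05, and the medians of all other lists lie between −0.02 and 0.16 (deposited scale; with AdV-IL4 the poly-A scale puts the median of the folding helpers at −0.17).

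Whole lung holds many cell types, and in such RNA fewer cells of a type and less RNA per cell cannot be told apart. Of the lists of cell type markers, several moved with the same comparisons. Plasma cell markers, a secretory cell rich in ER, had summed signals of 10140.4 to 10482 with the control virus, 23886 to 43585 with IL-4 and 23498 to 51229.8 with IL-4d2. Of 9 tested, 7 rose and 1 (Prdm1) fell with IL-4, 4 rose with IL-4d2, and 0 differed between the forms by limma, with 1 higher with IL-4 at an unadjusted p under 0.05. Jchain, which joins antibody chains, rose 20.2-fold with IL-4 and 22.8-fold with IL-4d2 (limma adjusted p = 2.07e-05 and 2.12e-05), and Mzb1, an ER chaperone of these cells, 3.19-fold and 3.6-fold.

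Markers of alternatively activated macrophages summed to 29177 to 68972 with the control virus, 89656 to 118298 with IL-4 and 36024 to 49021 with IL-4d2. Of 8 tested, 7 rose with IL-4, 0 rose and 1 fell with IL-4d2, and 6 were higher with IL-4 than with IL-4d2. Mucous cell markers summed to 3936 to 25752, 20971 to 65715 and 8395 to 12636 in the same order, with 1 of 6 tested, Itln1, higher with IL-4. Alveolar type 2 markers ran 97404 to 132779, 131533 to 140649 and 118000.4 to 136168, with 2 of 7, Sftpd and Slc34a2, higher with IL-4. Matrix producer markers ran 32920.2 to 38084, 47862 to 54066 and 42540.2 to 43338, with 5 of 8 up and 1 down with IL-4 and 2 up with IL-4d2.

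Striated muscle markers summed to 15064 to 82039 with the control virus, 1731 to 7010.0 with IL-4 and 5985 to 20322 with IL-4d2, and 8 of 9 fell with IL-4. The lung epithelium markers (Scgb1a1, Ager, Foxj1 and others) were present on all arrays, at summed signals of 100510.0 to 135997, 114158 to 126858 and 106891 to 119445, and 0 of 6 tested passed with IL-4 by limma (1 higher at an unadjusted p under 0.05). Nkx2-1 was too dim to be tested. No marker of any list had a signal of 0. The ratio of 3′ to 5′ signal of Gapdh, which rises as RNA is degraded, was 0.955 to 1.45 with the control virus, 1.54 to 1.8 with IL-4 and 1.35 to 1.57 with IL-4d2. The part of these cell types and of RNA quality in the changes of the ER genes was not tested.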

How the data were processed

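Lung RNA of 9 mice was measured on 9 arrays, 3 per virus, 1 array per mouse. The deposited values are signal intensities on a linear scale for 45101 probe sets. Per the submitters' processing notes, Affymetrix Expression Console 2.0, MAS5 and GCOS were used, with no background method named there. The 2% trimmed mean was 500.002 on every array, so each array was scaled by 1 factor, and a shift shared by most genes cannot be seen without the control transcripts.

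Signals were taken as log2(signal + 16). After 64 control probe sets were left out, 23824 probe sets were kept, each brighter than the array median on 3 or more of the 9 arrays, and tested in 1 limma 3.58.1 fit (R 4.3.3; lmFit, eBayes with trend; 6 residual degrees of freedom), two-sided, with Benjamini-Hochberg adjustment over all tested probe sets within each comparison at a threshold of 0.05. The steps were tested on simulated data. Fold changes are on the log2(signal + 16) scale and understate those of dim genes. The brightest tested probe set stands for a gene, others are given where they disagree, and levels are compared only within a probe set. Symbols are those of the platform annotation. Every member called in a comparison is named with its signal on each array, other members with their differences, and up to 3 called genes of each further list. The 41 members and all lists were chosen with earlier results of these data known, so no list was tested as a whole. Alternatives were other pseudocounts (1 and 64), no filter, quantile normalization, scaling to control transcripts, fits of 2 groups, no trend, a replicate block, leaving out mice, and the mean over all probe sets of a gene. Arrays have no read depth, and their number limits the precision. Same-numbered mice had correlations of −0.0694 to 0.116 in their deviations from the group means, and differently numbered mice −0.133 to 0.132. Between IL-4 and IL-4d2 mice these were 0.0707 to 0.116 and −0.0894 to −0.0134. Same-numbered pairs with a control mouse ran from −0.0694 to 0.0836. The labels do not state pairs, so mouse numbers were not taken as pairs, and the replicate block is an alternative.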

Additional observations from a re-analysis of the deposited data

Results flagged for a closer look

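Edem1 differed between the cytokine forms, with a log2 difference of 0.45 between AdV-IL4 and AdV-IL4d2 mice (limma adjusted p = 0.0377), and Syvn1 with one of 0.44 (adjusted p = 0.0373). Each was singled out because the test of the difference between the forms passed the threshold. All 3 IL-4 arrays lay above all 3 IL-4d2 arrays in both genes. Each call was lost in 6 of 9 fits without 1 mouse. The second probe sets, at 0.21 for Edem1 and 0.25 for Syvn1, did not pass. On the hybridisation and poly-A scales the differences turned to −0.08 and −0.62 for Edem1 and to −0.10 and −0.63 for Syvn1.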

How the results depend on the processing

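The counts of genes that rose depended most on the scaling. With IL-4 14 genes rose as deposited, 2 on the hybridisation-control scale and 0 on the poly-A scale, and 13 to 16 in the fits without 1 mouse. Over all 23824 tested probe sets 1335 rose as deposited, 295 on the hybridisation-control scale and 152 on the poly-A scale. With IL-4d2 5 rose, and 4 or 5 under every alternative that gives a count, including 4 to 5 without 1 mouse. Between the forms 2 genes passed, both higher with IL-4. The count was 0 without the filter, with only the groups compared, without trend or without the arrays of outlying muscle signal. It was 3 under quantile normalization (Hsp90b1 gained), 1 with the replicate block and 0 to 2 without 1 mouse. On the control-transcript scales 17 (hybridisation) and 41 (poly-A) passed, all lower with IL-4. Of all 23824 tested probe sets 11074 (hybridisation) and 22470 (poly-A) were lower with IL-4 there. With mouse number as a replicate block, 15 genes rose with IL-4 (Ddit3 gained, Atf6 lost) and 5 with IL-4d2, and Syvn1 lost its difference between forms. The labels do not say whether the numbers pair the mice, so which of these fits is the better one was not settled. Leaving out the pair of arrays with outlying muscle signal (control mouse 1, IL-4 mouse 2), 11 of 15 calls with IL-4 remained (Canx, Dnajb9, Derl3 and Atf6 lost) and 4 of 5 with IL-4d2 (Pdia4 lost).

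Among differences past the threshold in the reported fit or in the alternative, signs turned only on the control-transcript scales. Of the 123 differences, 12 crossed 0 between the fits without 1 mouse, and 0 of these were called. On the hybridisation scale 22 of 41 genes turned sign with IL-4 and 25 between the forms, and those past the threshold in either fit became, for IL-4 against control, −0.07 (Canx) and −0.06 (Dnajb9), and for IL-4 against IL-4d2 −0.51 (Pdia3), −0.08 (Edem1), −0.10 (Syvn1) and −0.50 (Xbp1). On the poly-A scale 29 turned with IL-4 and 26 between the forms, and those past the threshold in either fit became, for IL-4 against control, −0.13 (Hsp90b1), −0.17 (Calr), −0.42 (Canx), −0.41 (Dnajb9), −0.21 (Dnajb11), −0.59 (Dnajc3), −0.53 (Pdia3), −0.16 (Pdia6), −0.75 (P4hb), −0.71 (Txndc5), −0.65 (Txndc11), −0.68 (Ppib), −0.67 (Sec61a1), −0.75 (Sec61b), −0.60 (Ssr2), −0.69 (Ssr3), −0.64 (Spcs2), −0.59 (Herpud1), −0.70 (Derl1), −0.54 (Derl2), −0.11 (Edem1), −0.01 (Syvn1), −0.62 (Sel1l) and −0.58 (Xbp1). For IL-4 against IL-4d2 they became −0.90 (Hspa5), −0.71 (Hsp90b1), −0.85 (Calr), −0.83 (Canx), −0.68 (Sdf2l1), −0.84 (Manf), −0.85 (Creld2), −0.87 (Dnajb9), −0.93 (Dnajb11), −0.98 (Hyou1), −1.05 (Pdia3), −0.74 (Pdia4), −0.83 (Pdia6), −0.96 (Txndc5), −0.91 (Ssr3), −0.78 (Sec11c), −1.01 (Spcs2), −1.0 (Spcs3), −0.96 (Herpud1), −0.91 (Derl1), −0.66 (Derl3), −0.62 (Edem1), −0.63 (Syvn1), −1.01 (Sel1l), −1.03 (Xbp1) and −0.51 (Atf4). The mean over all tested probe sets of a gene, a value with no test, moved 28 of 78 differences by more than 1 SD, among them Canx to 0.19 with IL-4. The mean of Ddit3 with IL-4, 1.07, takes in its dim probe set, whose control signals are low and vary widely. No larger rise of Ddit3 is read from it. Precision is limited by 3 arrays per group and, for Derl3, Fkbp11 and Txndc11, by low signals.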

Other observations

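A pair of other motifs of ER stress were searched in the same promoter windows on both strands. The letters TGACGTGG were in 0.676% of all windows and, among the members, in those of Txndc5 and Txndc11, neither of which passed the test with either cytokine form. The letters TGATGNAAN, which fit the amino acid response element, were in 3.95% of all windows and in those of Herpud1 and Txndc5. None of these genes holds the ER stress element with its 9-base spacing, and the matches are descriptions only. In Herpud1 the parts CCAAT and CCACG stand close together on opposite strands, at bases 52 to 48 and 46 to 42 before the start. Of the 96 probe sets of the 41 genes, the 10 that were too dim to be tested belong to genes with another tested probe set, and the highest signal of any of them was 196, for Sel1l.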
